A study of Mus musculus with 24 samples.

Results

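Whole kidneys of mgb-/- mice graded as severely hydronephrotic were compared with whole kidneys of mgb+/+ control mice. The comparison takes all 6 kidneys labelled severe and all 6 labelled control, out of 24 kidneys in the series. The 7 kidneys labelled mild served to set the severe kidneys beside another grade and, like the moderate ones, entered the shared estimate of spread. All animals were age-matched males, labelled young adult and a few weeks old by the methods of the study. The megabladder (mgb) mouse is born with an atonic bladder that empties poorly, so the obstruction is congenital and affects the whole urinary tract, and the grade was set by ultrasound from how much renal parenchyma was left. Total RNA of each snap frozen kidney was labelled with the dye Cy3 and hybridized to an array of its own. Nothing in the labels tells kidneys of 1 animal from those of 2, so the p-values measure the spread between kidneys. For genes this spread was pooled over all 24 kidneys of the series, the mild and moderate ones included. A kidney homogenate mixes tubules, vessels, stroma, blood cells and the lining of the pelvis, so fewer cells of a type and less RNA per cell cannot be told apart.

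In hydronephrosis, urine that cannot drain stretches the renal pelvis and thins the tissue around it. The pelvis is lined by urothelium, a layered epithelium whose surface cells carry plaques of uroplakin proteins and whose basal cells carry keratins such as Krt5 and Krt14. Behind an obstruction the tubules, mostly proximal tubules that reclaim solutes and metabolise drugs and steroids, are known to lose function, while stretch and injury are known to switch on immediate early genes, injury markers and matrix genes.

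Levels are given as the log2 of the array's signal over the 75th percentile of that array, so a level of 0 is that percentile, and levels of different genes cannot be compared because each probe has its own brightness. Where 3 levels are given for a group they are its lowest, median and highest kidney (n = 6). A change is the log2 difference of severe minus control kidneys with its standard error (SE). A gene was called where the Benjamini-Hochberg adjusted p of the limma fit was under 0.05 and the change was at least 2-fold. Counts of calls in a gene list are to be read beside the shares over all genes tested, 2.99% called higher and 1.73% called lower. Among the lists described with calls in 1 direction and none in the other, members with an unadjusted limma p under 0.05 in that other direction were 4 oxidative stress genes and 1 each of the acute-phase, MAP kinase feedback and thick limb lists, and there were none in the others.

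The groups had similar shares of probes well above background, while the array of severe replicate 4 had a defect that is described below. Probes well above background made up 63.8% ± 2.54 (SD, n = 6) on control arrays and 62.3% ± 5.26 on severe arrays (exact permutation test, two-sided, p = 0.554, smallest possible 0.00216). Correlations between replicates over all genes were between 0.97 and 0.99 for control and between 0.92 and 0.98 for severe kidneys. Of the Y-linked genes, 4 were measured and none was called, with no unadjusted p under 0.05. Myocd, the smooth muscle coactivator that is known to be disturbed in the bladder of this mouse, lay at -4.81, -4.32 and -2.29 in control kidneys and at -4.20, -2.95 and -2.68 in severe kidneys, and its change of 0.94 ± 0.36 (SE, adjusted p = 0.0785) did not pass the test, so it gave no check of the genotype in kidney.

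Among the severe kidneys 3 stood apart from the rest. The array of severe replicate 4 had a dim area: 557 of 31261 bright probes read over 16-fold below their mean over all arrays, against at most 64 on any control or other severe array, and 529 of these lay in 16 of 90 blocks of the array. Odc1, the first enzyme of polyamine synthesis, shows the effect within a gene: 1 of its probes read -3.81 on that array and 4.26 to 5.40 on those of severe replicates 1, 2, 3 and 5, while its other probes read 1.19 and 1.54 there, within their range on those arrays. Leaving out the dim areas gave 848 genes called higher and 472 lower. Severe replicate 6 stood close to the controls among the genes that fell in the others, and severe replicate 5 had the highest injury, matrix and chemokine levels.

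**Figure D1:**
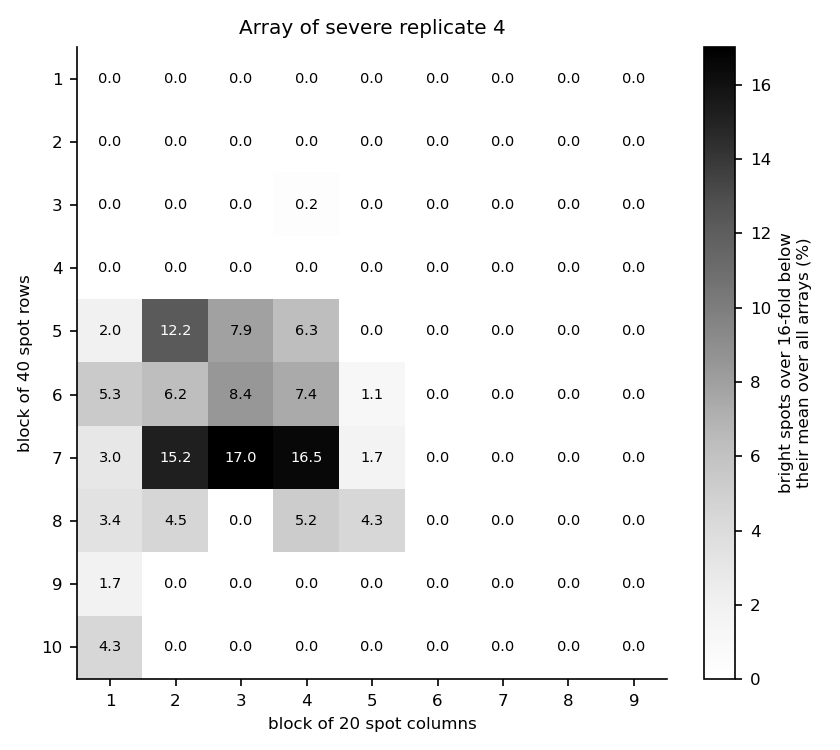
Share of bright spots, in percent, that read over 16-fold below their mean over all arrays, in blocks of 40 spot rows (vertical axis) and 20 spot columns (horizontal axis) of the array of severe replicate 4; a bright spot is 1 that is well above background on 20 or more arrays. The dim spots lie together in 16 of the 90 blocks, in each of which at least 2% of the bright spots are dim.

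Severe kidneys differed from control kidneys in 1318 of 27971 genes tested. Called higher were 835 genes (2.99% of those tested) and called lower 483 (1.73%), and the median change over all genes was 0.02. The largest named rises were genes of stratified and urinary epithelium and immediate early genes, and the 12 largest named falls included transporters and enzymes of the proximal tubule, of which 3 belong to a list of male-biased kidney genes. Both sets took only genes whose severe kidneys all lay on the same side of the control mean. Large falls of other male-biased genes, such as *Acsm3* and *Cyp4a12b*, are therefore not among the 12. The groups did not overlap at all for 467 of the genes called higher and for 107 of those called lower, beside 5.06% of all genes tested. When arrays were scaled by their median instead, 538 genes were called higher and 797 lower, the higher share of the calls went from 63.4% to 40.3%, and the median over all genes was -0.15, so the balance of rises and falls depends on the scaling.

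**Figure D2:**
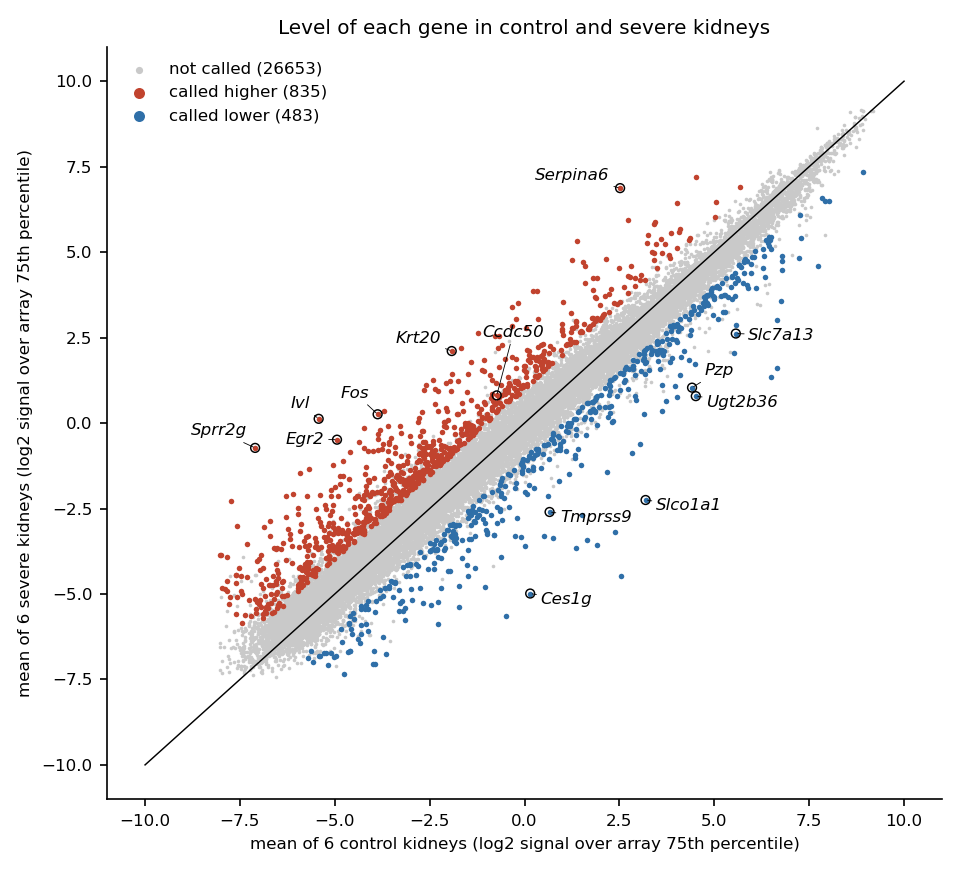
Mean level of each of the 27971 genes in 6 control kidneys (horizontal axis) and 6 severe kidneys (vertical axis), both as log2 signal over the array's 75th percentile. Red points are the 835 genes called higher, blue points the 483 called lower, and the line marks equal levels; the named rises lie farthest above the line at low control levels, while the named falls come from a wide range of control levels.

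Leaving out 1 kidney changed how many genes were called. Without severe replicate 6, 1419 genes (5.07%) were called higher and 862 (3.08%) lower, and 1302 of the 1318 genes called over all kidneys were among them in the same direction. Without severe replicate 5, 608 genes (2.17%) were called higher and 325 (1.16%) lower, and without severe replicate 2 these counts were 603 and 284. Over the genes called lower, the median change of a kidney from the control mean was -0.11 in severe replicate 6 and between -0.95 and -2.56 in the others. In that kidney 350 of the 483 genes lay within or above the range of the controls, against 3 to 28 genes in the other severe kidneys. Over the genes called higher its median was 0.71, against 1.19 to 2.22 in the others.

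**Figure D3:**
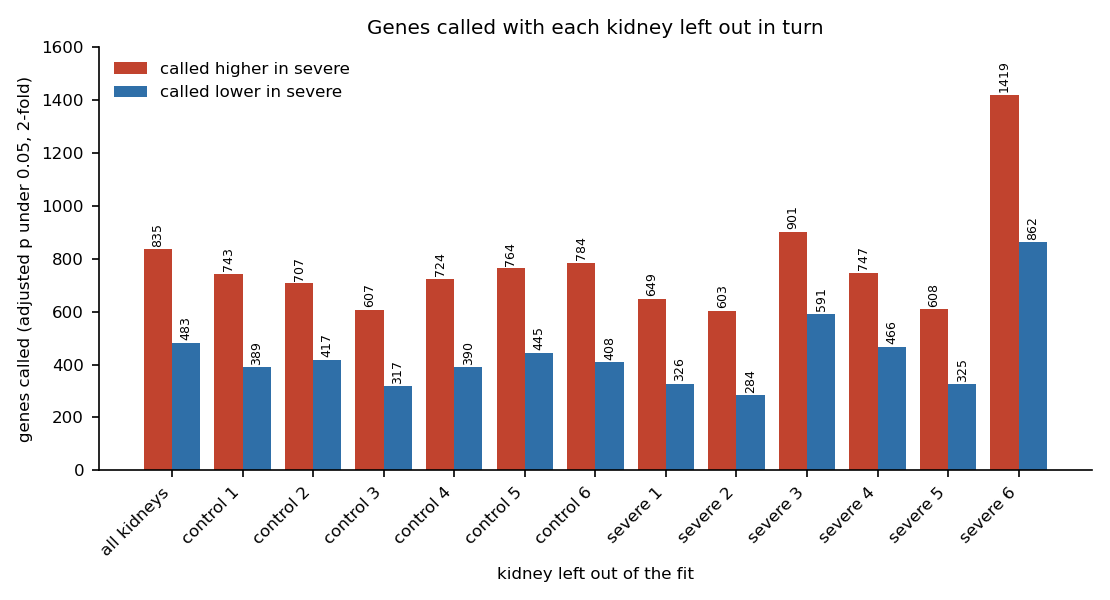
Number of genes called higher (red) and lower (blue) in severe kidneys, with all 12 kidneys and with each kidney left out of the fit in turn (horizontal axis). The bars run from 603 to 1419 for genes called higher and from 284 to 862 for genes called lower, and the tallest pair is the fit without severe replicate 6.

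The genes of the urothelium rose together. Of 25 genes of the urothelial plaque and urothelial keratins, 24 were called higher (96% beside 2.99% of all genes), with a median change of 3.19. The list includes genes that the study reported as higher in severe than in mild kidneys of these samples, so this count is not independent evidence. The groups overlapped in only 1 of the 25 genes, *Krt17*, while 5.06% of all genes tested had no overlap. Krt8, a keratin that kidney tubules also carry, was the single gene not called, with a change of 0.81 ± 0.23 (SE, adjusted p = 0.021) that passed the p threshold and fell short of 2-fold. A sum over 6 urothelial markers on the linear scale was 6.35 to 20.2 times the array's 75th percentile in control kidneys and 73.1 to 239 times in severe kidneys. No kidney of either group crossed between these ranges.

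Of the uroplakins, the membrane proteins that tile the surface of umbrella cells, *Upk2* lay at -0.85, -0.10 and 0.53 in control kidneys and at 2.84, 3.34 and 4.69 in severe kidneys. Its change was 3.68 ± 0.51 (SE, adjusted p = 0.000174). *Upk1b* lay at -2.13, -1.06 and -0.61 in control kidneys and at 1.65, 2.52 and 3.73 in severe kidneys, a change of 3.84 ± 0.54 (SE, adjusted p = 0.000177). For both, the lowest severe kidney was more than 2 log2 units above the highest control. *Upk1a* changed by 3.19 ± 0.48 (SE, adjusted p = 0.000368) and *Upk3a* by 3.17 ± 0.54 (SE, adjusted p = 0.0011), and the highest severe kidney for *Upk2* and *Upk3a* was replicate 2.

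Keratins of basal and of umbrella cells were among the genes called higher. *Krt15*, a keratin of basal cells, lay at -2.90, -2.31 and -1.92 in control kidneys and at -0.02, 0.35 and 2.03 in severe kidneys, and its change was 2.89 ± 0.38 (SE, adjusted p = 0.000136). *Krt14* and *Krt5*, partners in basal cells, changed by 3.53 ± 0.49 (SE, adjusted p = 0.000175), and by 3.22 ± 0.69 (SE, adjusted p = 0.00648). *Krt20*, the keratin of umbrella cells, lay at -2.87, -1.69 and -1.30 in control kidneys and at 0.54, 1.64 and 5.01 in severe kidneys, a change of 4.02 ± 0.72 (SE, adjusted p = 0.00164). Severe replicate 5 was the highest kidney for *Krt20*, and without it the change was 3.44 (adjusted p = 0.00365). *Uchl1*, a deubiquitinating enzyme, rose by 3.19 ± 0.39 (SE, adjusted p = 8.67e-05).

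Several of the genes with large rises code for proteins of the cornified envelope, a cross-linked protein shell known from skin. *Sprr2g*, a small proline-rich protein, lay at -8.21, -6.97 and -6.21 in control kidneys and at -2.44, -1.19 and 3.27 in severe kidneys. In no control kidney did it rise well above background, and it was well above it in all 6 severe kidneys, which makes it at least 34.4-fold higher (adjusted p = 0.00123). *Ivl* codes for involucrin, an early protein of the envelope. It lay at -7.23, -5.08 and -4.58 in control kidneys and at -1.23, -0.03 and 1.61 in severe kidneys, a change of 5.55 ± 0.69 (SE, adjusted p = 8.67e-05). *Sprr1a*, another proline-rich envelope protein, started from a higher level and lay at 0.57, 1.55 and 2.05 in control kidneys and at 4.45, 5.15 and 6.50 in severe kidneys, a change of 3.92 ± 0.54 (SE, adjusted p = 0.000168). *Sprr2f* was also not well above background in controls and was at least 11.7-fold higher (adjusted p = 0.0323), but its highest kidney, severe replicate 5 at 4.43, lay far above the median of -3.31. The call did not hold for *Sprr2f* without control replicate 1, 2, 3 or 4 or severe replicate 1, 2 or 5 (weakest change 4.11, adjusted p up to 0.0801). *Sprr2f* and *Sprr2g* belong to a family of near-identical genes, so a probe may read more than 1 of them.

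The promoters of 3 of these genes are shown because they hold the binding site of AP-1, the dimer of Fos and Jun proteins. Capitals mark TGACTCA or its reverse complement TGAGTCA. Sequences are from RefSeq (GRCm38.p6), 5′ to 3′ on the gene's strand, and end at the base before the annotated gene start. *Ivl* is shown at chr3:92573736-92573885 (minus strand), *Sprr1a* at chr3:92485882-92486031 (minus strand) and *Sprr2f* at chr3:92364937-92365186 (plus strand).
Ivl: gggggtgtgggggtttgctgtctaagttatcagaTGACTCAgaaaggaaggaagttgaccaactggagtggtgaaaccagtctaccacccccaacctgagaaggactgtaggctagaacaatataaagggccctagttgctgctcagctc
Sprr1a: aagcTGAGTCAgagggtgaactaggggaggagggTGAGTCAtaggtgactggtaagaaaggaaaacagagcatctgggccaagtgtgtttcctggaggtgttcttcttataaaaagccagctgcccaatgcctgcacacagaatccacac
Sprr2f: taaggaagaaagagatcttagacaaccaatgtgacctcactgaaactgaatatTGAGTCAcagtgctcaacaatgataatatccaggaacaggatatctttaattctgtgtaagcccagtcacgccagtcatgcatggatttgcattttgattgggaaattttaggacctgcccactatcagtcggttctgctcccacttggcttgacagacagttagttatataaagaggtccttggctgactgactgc
The site lies within 250 bases before the start in 3 of 16 urothelial genes with a listed promoter and in 4.46% of 32851 promoters. The palindrome AACCGGTT, a site of Grainyhead-like factors, was in none of the 16 and in 0.116% of all promoters. A gene counts where any of its listed starts has the site, while the share is per promoter. A match only says that these letters are in the window.

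Transcription factors known from urothelium were also higher. Of 15 measured, 10 were called higher and none lower, with a median change of 1.08. *Grhl3*, a Grainyhead-like factor of the epithelial barrier, lay at -3.24, -2.50 and -2.09 in control kidneys and at 0.40, 0.91 and 2.33 in severe kidneys, a change of 3.72 ± 0.48 (SE, adjusted p = 0.000111). Its relative *Grhl1* rose by 2.38 ± 0.35 (SE, adjusted p = 0.000298). *Foxa1* rose by 2.89 ± 0.55 (SE, adjusted p = 0.00263) and *Msx2*, a homeobox factor, by 1.97 ± 0.29 (SE, adjusted p = 0.000336). *Trp63*, the p53 relative of basal epithelial cells, has 2 probes that disagreed. By the brighter probe it lay at 2.82, 3.06 and 3.22 in control kidneys and at 2.27, 3.05 and 3.39 in severe kidneys, and its change of -0.07 ± 0.18 (SE, adjusted p = 0.827) was not called, while the mean of both probes rose by 1.16 (adjusted p = 0.00107).

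Other genes with large rises included *Serpinb5* (maspin, a protease inhibitor of epithelial cells), *Gjb6* (a connexin), *Ankrd22*, *Kcnmb4* (a subunit of calcium-activated potassium channels) and *Adh7*, which oxidises retinol. *Serpinb5* lay at -5.26, -4.20 and -3.36 in control kidneys and at -1.40, -0.35 and 1.23 in severe kidneys, and *Gjb6* lay at -4.39, -3.71 and -3.10 in control kidneys and at -0.87, 0.45 and 1.48 in severe kidneys. Their changes were 4.09 ± 0.59 (SE, adjusted p = 0.000244), and 4.06 ± 0.60 (SE, adjusted p = 0.000312). *Adh7* lay at -7.38, -5.84 and -4.90 in control kidneys and at -2.55, -1.51 and -0.43 in severe kidneys, *Ankrd22* lay at -7.76, -5.45 and -4.71 in control kidneys and at -2.59, -1.53 and -0.33 in severe kidneys and *Kcnmb4* lay at -7.04, -6.04 and -5.30 in control kidneys and at -2.95, -2.12 and -0.95 in severe kidneys. In none of these 5 genes did the groups overlap, while 5.06% of all genes tested had no overlap. The 5 were picked for large rises with all 6 severe kidneys above the control mean, which favours a lack of overlap. The changes of the last 3 were 4.44 ± 0.78 (SE, adjusted p = 0.00142), 4.32 ± 0.70 (SE, adjusted p = 0.000694) and 4.01 ± 0.63 (SE, adjusted p = 0.000513). *Adh7* and *Ankrd22* were well above background in 3 of the 6 controls and *Kcnmb4* in 1, so these changes are read partly against values near background. The other probe of *Kcnmb4*, well above background on all arrays, rose by 0.95 (adjusted p = 0.00894), short of 2-fold. *Arhgap40*, a GTPase-activating protein, and *Slc46a2*, a membrane transporter, were among the 5 genes with the lowest p, with changes of 3.20 ± 0.31 (SE, adjusted p = 7.64e-06) and of 3.73 ± 0.38 (SE, adjusted p = 1.16e-05).

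**Figure D4:**
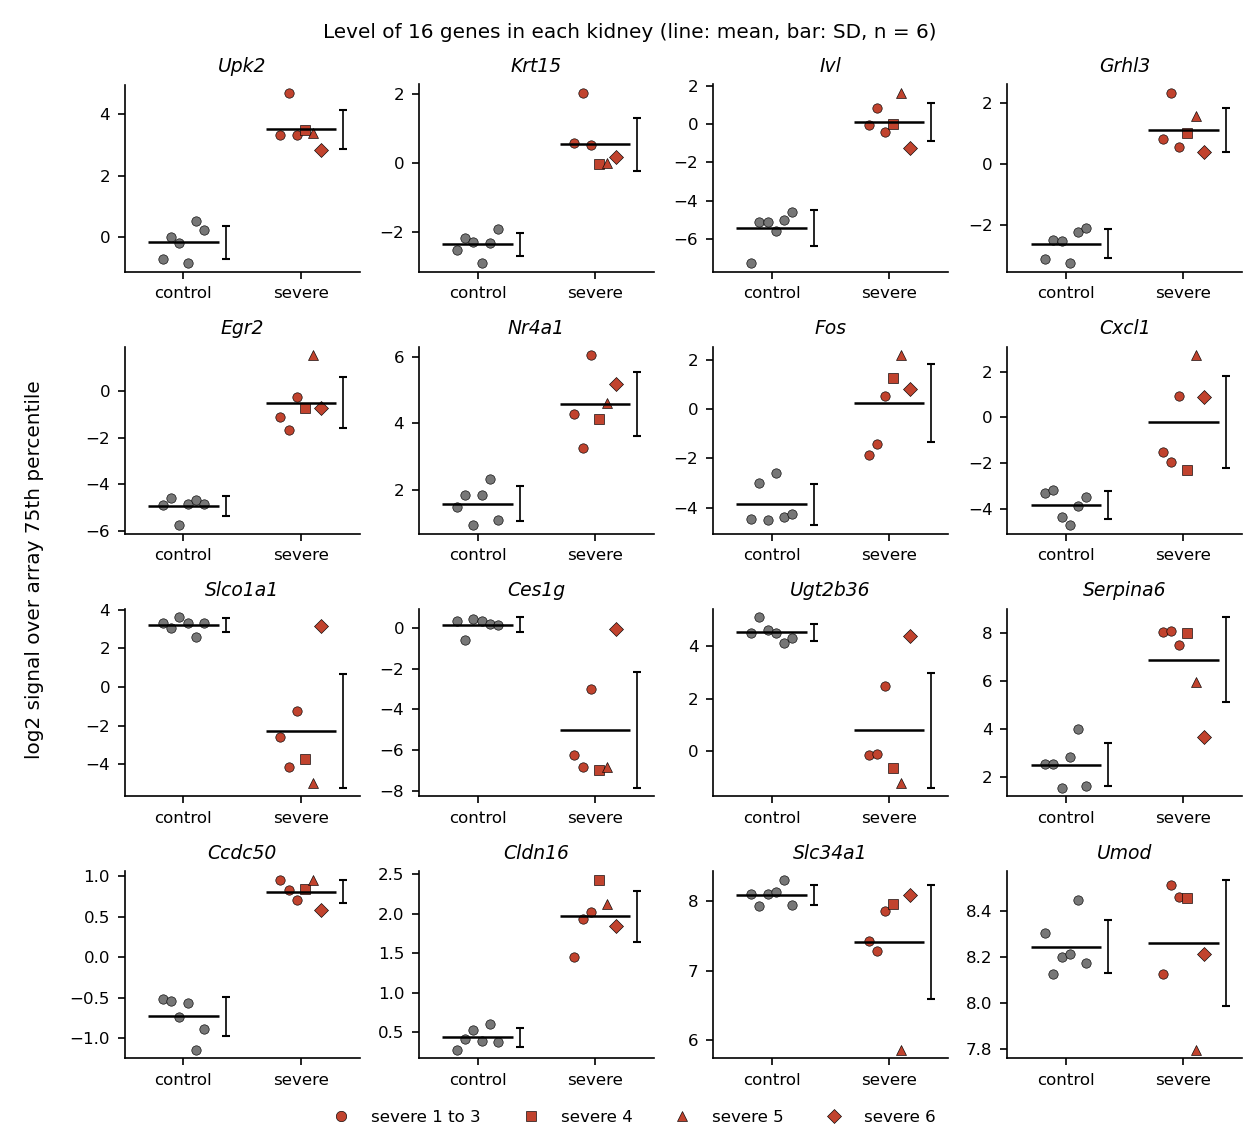
Level of 16 genes (log2 signal over the array's 75th percentile, vertical axis, own scale in each panel) in each of the 6 control kidneys (grey) and the 6 severe kidneys (red; the square, the triangle and the diamond are severe replicates 4, 5 and 6), with the group mean as a line and the SD as a bar. Upk2, Krt15, Ivl, Grhl3, Egr2, Nr4a1, Fos, Cxcl1, Ccdc50 and Cldn16 show no overlap, the diamond lies among the controls for Slco1a1, Ces1g and Ugt2b36, and Slc34a1 and Umod were not called.

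Severe kidneys were also set beside mild kidneys of the same genotype. In the fit over all 4 groups, 127 genes (0.454%) were called higher and 2 (0.00715%) lower in severe than in mild kidneys. The urothelial plaque and keratin genes held 15 of these calls among 25, the urothelial transcription factors 5 among 15, and the immediate early genes 0 among 25. The urothelial lists include genes that the study reported for this contrast on these samples, such as uroplakins, *Krt14*, *Grhl3* and *Foxa1*. The counts of these lists are therefore not independent evidence. *Krt15* was higher in severe than in mild kidneys by 3.02 ± 0.36 (SE, adjusted p = 0.000398), *Upk2* by 3.15 ± 0.49 (SE, adjusted p = 0.00375) and *Gjb6* by 3.18 ± 0.58 (SE, adjusted p = 0.00902). *Egr2* differed by 0.50 ± 0.49 (SE, adjusted p = 0.736) and was not called, and 4 of the 25 immediate early genes had an unadjusted p under 0.05 in this fit. These calls rest on the spread shared over 4 groups: with the severe and mild kidneys fitted by limma on their own no gene was called (before adjustment 2509 genes had p under 0.05, and after it the lowest was 0.07), and without severe replicate 2 or 5 the fit over 4 groups called 60 or 67 genes.

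Immediate early genes, whose mRNAs appear within minutes of a stimulus and decay quickly, formed the other large group of rises. Of 25 measured, 19 were called higher and none lower, with a median change of 1.73. The list includes genes that the study reported as higher in mgb-/- kidneys of these samples, such as *Egr1*, *Egr2*, *Fos* and *Nr4a1*. This count is therefore not independent evidence. *Egr2*, a zinc finger factor, lay at -5.77, -4.85 and -4.58 in control kidneys and at -1.69, -0.73 and 1.56 in severe kidneys, a change of 4.46 ± 0.51 (SE, adjusted p = 4.69e-05). *Fos* lay at -4.49, -4.33 and -2.59 in control kidneys and at -1.87, 0.68 and 2.19 in severe kidneys, a change of 4.13 ± 0.66 (SE, adjusted p = 0.000617). *Egr1* changed by 3.72 ± 0.56 (SE, adjusted p = 0.000375), *Nr4a1*, an orphan nuclear receptor, by 2.99 ± 0.42 (SE, adjusted p = 0.000175), and *Btg2*, an antiproliferative gene, by 2.40 ± 0.31 (SE, adjusted p = 9.57e-05). *Ptgs2*, the inducible cyclooxygenase, lay at -5.97, -5.62 and -4.69 in control kidneys and at -3.19, -2.39 and 0.15 in severe kidneys, a change of 3.29 ± 0.54 (SE, adjusted p = 0.000847). Severe replicate 6 took part in these rises: the median of the list in that kidney was 1.60, against 1.47 to 2.47 in the other severe kidneys.

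The promoters of *Fos*, *Btg2* and *Nr4a1* are shown because 14 of the 21 immediate early genes with a listed promoter (66.7%) hold the core of the cAMP response element (CRE) within 250 bases before the start, against 17.8% of 32851 promoters. A gene counts where any of its listed starts has the core, while the background share is per promoter. *Egr4* and *Nr4a3*, among the 14, were not among the genes tested here. Capitals mark the core TGACG or its reverse complement CGTCA, and in *Btg2* the full element TGACGTCA, which occurs in 1.55% of promoters. The RefSeq positions (GRCm38.p6) are chr12:85473790-85473889 (plus strand) for *Fos*, chr1:134079156-134079355 (minus strand) for *Btg2* and chr15:101266746-101266845 (plus strand) for *Nr4a1*.
Fos: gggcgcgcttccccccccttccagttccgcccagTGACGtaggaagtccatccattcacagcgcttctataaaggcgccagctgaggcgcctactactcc
Btg2: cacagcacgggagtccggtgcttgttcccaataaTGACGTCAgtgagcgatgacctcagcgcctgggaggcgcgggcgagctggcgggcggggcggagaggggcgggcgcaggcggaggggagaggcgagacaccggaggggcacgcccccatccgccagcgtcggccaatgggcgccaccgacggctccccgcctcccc
Nr4a1: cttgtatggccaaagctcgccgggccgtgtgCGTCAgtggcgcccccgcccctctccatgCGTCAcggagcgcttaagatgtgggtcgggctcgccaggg
In the urothelial plaque and keratin genes the core was found in 1 of 16, *Krt5*. The CArG box, the site of serum response factor, was found in 2 of the 21 immediate early genes (*Egr2* and *Zfp36*) and in 1.47% of all promoters.

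Some genes that respond to glucocorticoids or to growth arrest signals were called higher beside the immediate early genes. Of 13 glucocorticoid-responsive genes 6 were called higher and none lower, with a median change of 1.14. The list's median was 1.32 to 1.53 in severe replicates 1 to 4, 0.44 in severe replicate 5 and 0.01 in severe replicate 6. In control kidneys it lay between -0.66 and 0.81. *Ddit4*, an inhibitor of mTOR signalling, lay at 3.44, 3.99 and 4.97 in control kidneys and at 5.34, 5.58 and 5.98 in severe kidneys, a change of 1.53 ± 0.18 (SE, adjusted p = 7.6e-05). *Cebpd* and *Cebpb*, transcription factors of the acute response, changed by 2.04 ± 0.28 (SE, adjusted p = 0.000152) and by 1.58 ± 0.22 (SE, adjusted p = 0.000174). Of 16 p53 targets and growth arrest genes 6 were called higher and 1 lower, with a median of 0.61. *Cdkn1a*, the cell cycle inhibitor p21, lay at -1.33, -0.93 and -0.33 in control kidneys and at 0.12, 1.52 and 2.20 in severe kidneys, a change of 2.30 ± 0.46 (SE, adjusted p = 0.00405). *Gadd45g* rose by 1.23 ± 0.19 (SE, adjusted p = 0.000472). *Rasd1*, a small GTPase known as induced by dexamethasone, changed by 2.46 ± 0.25 (SE, adjusted p = 1.16e-05). Of the MAP kinase feedback genes 3 of 13 were called higher, among them *Dusp1*, a phosphatase of MAP kinases, by 1.49 ± 0.23 (SE, adjusted p = 0.000505). The 3 called higher became 1 with normexp background correction or with the deposited normalized values. Of 16 genes of the circadian clock, none was called, and 3 were higher and 2 lower at p under 0.05 before adjustment.

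Markers of tubular injury were highest in a single severe kidney, replicate 5. Of 20 measured, 6 were called higher and none lower, with a median change of 0.99, or 0.76 without severe replicate 5. The 6 called higher became 1 with median scaling, 2 without severe replicate 5 or with the compared groups fitted alone and 3 without control replicate 2, 3, 4, 5 or 6, without severe replicate 2 or with no filter on dim probes. *Lcn2*, the secreted injury marker NGAL, lay at -1.34, -0.67 and -0.35 in control kidneys and at -0.27, 1.75 and 5.48 in severe kidneys, and *Havcr1*, the proximal tubule injury marker KIM-1, lay at -3.50, -3.24 and -2.56 in control kidneys and at -3.48, -1.41 and 4.16 in severe kidneys. Severe replicate 5 was the highest kidney for both, and neither gene was called (adjusted p = 0.0692 and 0.117). *Plaur*, the urokinase receptor, rose by 1.57 ± 0.44 (SE, adjusted p = 0.0217), and *Lgals3*, a lectin, by 1.09 ± 0.30 (SE, adjusted p = 0.0209). *Slpi*, a protease inhibitor, changed by 2.85 ± 0.93 (SE, adjusted p = 0.0402). In that kidney the list's median was 2.93, against 0.39 to 0.97 in the other severe kidneys. Leaving out 1 kidney ended the call of *Lgals3* without severe replicate 2 or 5 (weakest change 0.83, adjusted p up to 0.0524) and *Slpi* without control replicate 2, 3, 4, 5 or 6 or severe replicate 3, 4 or 5 (weakest change 1.98, adjusted p up to 0.0933).

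Acute-phase, matrix and chemokine genes showed the same kidney on top. Of 22 acute-phase and complement genes 6 were called higher. The 6 called higher became 2 without severe replicate 5 or with median scaling, 3 without severe replicate 2 and 10 without severe replicate 6. *Stat3*, the transcription factor of the acute-phase response, rose by 1.08 ± 0.24 (SE, adjusted p = 0.00774), and *Osmr*, a subunit of the oncostatin M receptor, by 1.42 ± 0.37 (SE, adjusted p = 0.016). Ceruloplasmin, coded by *Cp*, lay at -0.26, 0.00 and 0.59 in control kidneys and at 0.79, 1.78 and 4.28 in severe kidneys, a change of 1.88 ± 0.54 (SE, adjusted p = 0.0241). *Serpina10*, a liver protease inhibitor, changed by 2.92 ± 0.82 (SE, adjusted p = 0.0215). With 1 kidney left out, the call was lost for *Stat3* without severe replicate 2 (weakest change 0.98, adjusted p up to 0.0247), *Cp* without severe replicate 5 (weakest change 1.42, adjusted p up to 0.0563) and *Serpina10* without severe replicate 5 (weakest change 2.55, adjusted p up to 0.0522).

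Of 27 matrix and fibrosis genes 8 were called higher and none lower, with a median of 0.82. The 8 called higher became 3 without severe replicate 5, 4 with median scaling and 5 without control replicate 3. *Thbs1*, thrombospondin, lay at 0.33, 0.49 and 0.72 in control kidneys and at 1.38, 1.82 and 3.79 in severe kidneys, a change of 1.59 ± 0.37 (SE, adjusted p = 0.00888). *Lox* (a collagen cross-linker) and *Ccn2* (connective tissue growth factor) changed by 2.24 ± 0.53 (SE, adjusted p = 0.00993) and by 1.05 ± 0.26 (SE, adjusted p = 0.0126). *Col1a1*, fibrillar collagen, lay at 2.47, 2.79 and 3.02 in control kidneys and at 3.09, 3.22 and 5.30 in severe kidneys over the 5 severe kidneys with a value, and was not called (0.87 ± 0.44 (SE, adjusted p = 0.176)). In severe replicate 5 the list's median was 2.28, against 0.35 to 0.52 in the other severe kidneys. The call did not hold for *Ccn2* without control replicate 4 or severe replicate 4 or 5 (weakest change 0.89, adjusted p up to 0.0331).

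Among 35 genes of TGF-beta and BMP signalling 7 were called higher and 1 lower (20% and 2.86%, beside 2.99% and 1.73% of all genes), with a median change of 0.24. *Tgfb1* itself was not called (0.51 ± 0.27 (SE, adjusted p = 0.198)). *Bmp3*, a BMP ligand that opposes other BMPs, lay at -3.45, -3.12 and -2.42 in control kidneys and at -1.76, -0.53 and 0.64 in severe kidneys, a change of 2.43 ± 0.32 (SE, adjusted p = 0.000144). *Bmp2* rose by 1.52 ± 0.29 (SE, adjusted p = 0.00316). The secreted antagonists *Fstl3* and *Grem1* rose by 1.17 ± 0.20 (SE, adjusted p = 0.0011) and by 3.59 ± 0.67 (SE, adjusted p = 0.00239). Of 14 contractile genes of smooth muscle 4 were called higher and none lower. The 4 called higher became 2 without control replicate 1, without severe replicate 5, with median scaling or with array weights. *Acta2* (smooth muscle actin) lay at 2.28, 2.56 and 3.39 in control kidneys and at 3.61, 4.26 and 5.35 in severe kidneys, a change of 1.59 ± 0.36 (SE, adjusted p = 0.00846), and *Tagln* (transgelin) changed by 1.66 ± 0.32 (SE, adjusted p = 0.0031). The summed smooth muscle markers on the linear scale were 14.4 to 25.0 in control kidneys and 21.6 to 37.2 in the severe kidneys other than replicate 4, where Smtn, the brightest of them, has no value.

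Signalling genes of development were mixed with these rises: of 27 EGF, FGF, Wnt and hedgehog genes 8 were called higher and none lower, with a median of 0.56. The 8 called higher became 2 with normexp background correction or with the deposited normalized values, 3 with median scaling, 4 without control replicate 3, without severe replicate 2 or 5, with quantile normalization or with probes well above background on all arrays and 5 without control replicate 1, 2, 4 or 6, without severe replicate 1 or with no filter on dim probes. *Hhip*, the hedgehog-binding antagonist, lay at -3.05, -2.60 and -2.33 in control kidneys and at -1.32, -0.47 and -0.04 in severe kidneys, a change of 2.06 ± 0.35 (SE, adjusted p = 0.00106). *Lef1*, a factor of the Wnt pathway, and *Wnt4*, a Wnt ligand of the developing nephron, rose by 1.13 ± 0.21 (SE, adjusted p = 0.00209) and by 2.07 ± 0.49 (SE, adjusted p = 0.0106). In the list of renin-angiotensin and prostaglandin genes 3 of 19 were called higher and 1 lower. The 3 called higher became 1 with normexp background correction, with the deposited normalized values or with probes well above background on all arrays. The fall was that of *Mas1*, a receptor for angiotensin fragments, which lay at -1.17, -0.56 and -0.31 in control kidneys and at -5.56, -4.53 and -0.23 in severe kidneys, a change of -3.31 ± 0.75 (SE, adjusted p = 0.00845).

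The chemokine and cytokine list held 3 calls higher and 1 lower among 20. The 3 called higher became 1 with the compared groups fitted alone. *Cxcl1*, which draws neutrophils, lay at -4.70, -3.66 and -3.17 in control kidneys and at -2.27, -0.29 and 2.71 in severe kidneys, a change of 3.61 ± 0.74 (SE, adjusted p = 0.00455). *Il1b* changed by 2.13 ± 0.61 (SE, adjusted p = 0.0237) and *Ccl9*, a chemokine of myeloid cells, by 2.14 ± 0.56 (SE, adjusted p = 0.0161). *Ccl28*, a chemokine of mucosal epithelia, changed by -1.65 ± 0.50 (SE, adjusted p = 0.0298), and severe replicate 6, at 0.59, lay above every control. Of 22 leukocyte markers 0 were called higher and 1 lower, beside 2.99% and 1.73% of all genes, and their median was 1.81 in severe replicate 5 and between -0.21 and 0.28 in the other severe kidneys. The 1 lower was *Gzma*, a protease of cytotoxic cells, which lay at -1.56, -1.40 and -1.02 in control kidneys and at -3.72, -2.94 and -2.09 in severe kidneys, a change of -1.53 ± 0.30 (SE, adjusted p = 0.0032). Before adjustment, 0 of the 22 were higher and 2 lower at p under 0.05. The summed leukocyte markers on the linear scale were 32.0 to 47.1 in control kidneys and 35.2 to 111 in the severe kidneys other than replicate 4, where the bright Csf1r has no value, and highest in severe replicate 5, and their part in the chemokine rises was not tested. Of 18 interferon and antigen presentation genes 1 was called, *Oas1a*, an antiviral enzyme, which changed by -1.07 ± 0.30 (SE, adjusted p = 0.0239). Calls that fell away with 1 kidney left out were those of *Il1b* without control replicate 3 (weakest change 1.38, adjusted p up to 0.053), *Ccl28* without control replicate 3, 4 or 6 or severe replicate 1, 2, 4 or 5 (weakest change -1.50, adjusted p up to 0.0722) and *Oas1a* without control replicate 3 or severe replicate 1 or 2 (weakest change -0.90, adjusted p up to 0.0649).

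Transporters and enzymes of the proximal tubule were among the falls. Of 30 genes of proximal tubule transport and metabolism 6 were called lower and none higher, with a median change of -0.67. The 6 called lower became 0 with the compared groups fitted alone, 2 without severe replicate 2, 3 without severe replicate 5, 10 with median scaling and 12 without severe replicate 6. *Slc22a7*, an organic anion transporter, lay at 6.64, 6.80 and 6.87 in control kidneys and at 1.60, 4.58 and 6.84 in severe kidneys, a change of -2.31 ± 0.65 (SE, adjusted p = 0.0219). *Slc34a3*, a phosphate transporter, changed by -1.59 ± 0.43 (SE, adjusted p = 0.0181). *Slc6a19*, the neutral amino acid transporter, lay at 3.84, 4.07 and 4.49 in control kidneys and at -1.73, 2.47 and 3.56 in severe kidneys, a change of -2.20 ± 0.55 (SE, adjusted p = 0.0131). The lowest of these values is severe replicate 4, in whose dim area the probe lies, and without the dim areas the change was -1.47 (adjusted p = 0.00192). *Slc34a1*, the main phosphate transporter, lay at 7.93, 8.10 and 8.31 in control kidneys and at 5.86, 7.64 and 8.09 in severe kidneys, and was not called (-0.68 ± 0.27 (SE, adjusted p = 0.086)). The summed markers of the proximal tubule were 831 to 1003 in control and 206 to 913 in severe kidneys, lowest in severe replicate 5, and their part in the falls was not tested. In fits that left out 1 kidney, the call was not reached for *Slc22a7* without severe replicate 2 (weakest change -1.74, adjusted p up to 0.0532) and *Slc34a3* without severe replicate 2 (weakest change -1.24, adjusted p up to 0.0503).

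In most of the largest named falls severe replicate 6 stayed within the range of the controls. *Slco1a1*, a transporter of organic anions and steroid conjugates, lay at 2.56, 3.31 and 3.59 in control kidneys and at -4.98, -3.15 and 3.13 in severe kidneys. Its change was -5.44 ± 1.35 (SE, adjusted p = 0.0125), and -6.52 (adjusted p = 0.00116) without severe replicate 6. *Ces1g*, a carboxylesterase, lay at -0.57, 0.26 and 0.45 in control kidneys and at -6.95, -6.54 and -0.07 in severe kidneys, and its change was -5.14 ± 1.23 (SE, adjusted p = 0.0108). The glucuronosyltransferase *Ugt2b36* lay at 4.10, 4.49 and 5.08 in control kidneys and at -1.22, -0.13 and 4.37 in severe kidneys, a change of -3.73 ± 0.95 (SE, adjusted p = 0.0144), and its neighbour *Ugt2b35* changed by -3.63 ± 0.98 (SE, adjusted p = 0.0182). These UGT genes are close copies, so their probes may share signal. *Pzp*, a protease-binding plasma protein, lay at 4.20, 4.47 and 4.59 in control kidneys and at -2.51, 0.67 and 4.36 in severe kidneys, a change of -3.38 ± 0.91 (SE, adjusted p = 0.0182).

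Of the remaining large falls, *Tmprss9*, a membrane protease, changed by -3.26 ± 0.76 (SE, adjusted p = 0.00902), *Rhox6*, a homeobox gene, by -3.08 ± 0.75 (SE, adjusted p = 0.0117), *Astn1*, a neuronal adhesion protein, by -2.98 ± 0.77 (SE, adjusted p = 0.0146) and *Tex21* by -2.94 ± 0.68 (SE, adjusted p = 0.00888). Of these 4 only *Tex21* had no overlap between the groups, while 5.06% of all genes tested had none. The 4 were picked for large falls with all severe kidneys below the control mean, which favours a lack of overlap. *Akr1c14*, a hydroxysteroid dehydrogenase, changed by -3.26 ± 1.02 (SE, adjusted p = 0.0343), *Cyp2j13*, a cytochrome P450, by -3.25 ± 0.98 (SE, adjusted p = 0.0291), and *Slc7a13*, an amino acid transporter of the straight proximal tubule, by -2.95 ± 0.97 (SE, adjusted p = 0.0423). Leaving out 1 kidney ended the call of *Akr1c14* without control replicate 1, 2, 3, 4 or 6 or severe replicate 1, 2 or 5 (weakest change -2.65, adjusted p up to 0.0853), *Cyp2j13* without control replicate 3 or severe replicate 1, 2, 4 or 5 (weakest change -2.79, adjusted p up to 0.0699) and *Slc7a13* without control replicate 1, 2, 3, 4, 5 or 6 or severe replicate 1, 2, 4 or 5 (weakest change -2.26, adjusted p up to 0.105).

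Genes that differ between male and female mouse kidney were prominent among these. Of 12 male-biased genes all 12 were called lower, with a median change of -3.54, and of 6 female-biased genes 4 were called higher and none lower, with a median of 2.06. The 4 called higher became 2 without severe replicate 1 or 2. The study chose both lists on these samples, so the counts are not independent evidence of a direction. *Acsm3*, an acyl-CoA synthetase, lay at 6.05, 6.68 and 7.00 in control kidneys and at -2.86, 1.19 and 6.77 in severe kidneys, a change of -5.03 ± 1.29 (SE, adjusted p = 0.0144). *Cyp4a12b*, a fatty acid hydroxylase, changed by -3.70 ± 0.95 (SE, adjusted p = 0.0147) and *Timd2*, a receptor for ferritin, by -2.12 ± 0.49 (SE, adjusted p = 0.00861). The median of the male-biased list was 0.09 in severe replicate 6 and between -5.03 and -1.92 in the other severe kidneys. *Serpina6*, corticosteroid-binding globulin, lay at 1.57, 2.54 and 3.99 in control kidneys and at 3.66, 7.75 and 8.07 in severe kidneys, a change of 4.35 ± 0.83 (SE, adjusted p = 0.00278). *Abcc3*, an export pump for conjugates, rose by 3.27 ± 0.61 (SE, adjusted p = 0.00222). *Prlr*, the prolactin receptor, and *Slc7a12*, an amino acid transporter, rose by 2.52 ± 0.68 (SE, adjusted p = 0.0184) and by 1.60 ± 0.44 (SE, adjusted p = 0.0198). With 1 kidney left out, the call was lost for *Prlr* without severe replicate 1 or 2 (weakest change 2.18, adjusted p up to 0.0574) and *Slc7a12* without severe replicate 1 or 2 (weakest change 1.43, adjusted p up to 0.0537).

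Drug and steroid metabolism followed. Of 25 cytochromes P450 and esterases 11 were called lower and 1 higher, with a median of -1.38. The 11 called lower became 5 without severe replicate 5 and 17 without severe replicate 6. The single rise was *Cyp1a1*, a target of the aryl hydrocarbon receptor, which lay at -4.76, -4.22 and -3.38 in control kidneys and at -3.32, -1.56 and -1.21 in severe kidneys, a change of 2.33 ± 0.33 (SE, adjusted p = 0.000205). *Ephx2*, soluble epoxide hydrolase, changed by -1.56 ± 0.37 (SE, adjusted p = 0.0101), and *Ces2e*, a carboxylesterase, by -1.64 ± 0.35 (SE, adjusted p = 0.00591). Of 25 steroid hormone enzymes and receptors 8 were called lower and 1 higher. The 8 called lower became 4 without severe replicate 2 and 5 without control replicate 3 or without severe replicate 1 or 5. *Hsd3b3* (a 3-beta-hydroxysteroid dehydrogenase) changed by -2.27 ± 0.56 (SE, adjusted p = 0.0122), *Hsd17b11* by -1.90 ± 0.49 (SE, adjusted p = 0.0158) and *Hsd17b14* by 1.68 ± 0.34 (SE, adjusted p = 0.00419). None of 6 adrenal gland markers was called, and their sums were 0.478 to 1.09 in control and 1.12 to 3.34 in severe kidneys, where Cyp11a1, the first enzyme of steroid synthesis, was not well above background. Akr1b7, the brightest of these markers in every kidney, changed by 1.17 ± 0.88 (SE, adjusted p = 0.381), and its levels overlapped between the groups. The other markers had adjusted p of 0.787 or more in the same fit. The part of the adrenal markers in the steroid enzyme values was not tested.

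Retinoic acid genes moved both ways: 5 of 29 were called higher and 3 lower, with a median of 0.10 that turned to -0.07 with median scaling. The 5 called higher became 3 without control replicate 2, 3, 4 or 5 or without severe replicate 2. The 3 called lower became 0 with the compared groups fitted alone and 1 without severe replicate 2 or 5, with normexp background correction or with the deposited normalized values. Beside *Adh7*, *Cyp26b1*, which breaks down retinoic acid, lay at -2.22, 0.00 and 2.52 in control kidneys and at 1.88, 2.77 and 3.43 in severe kidneys, a change of 2.73 ± 0.64 (SE, adjusted p = 0.00984). *Rbp4*, the retinol carrier of plasma, rose by 1.76 ± 0.43 (SE, adjusted p = 0.0117).

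Fatty acid oxidation genes held 4 calls lower and 1 higher among 27, with a median of -0.40, or -0.21 without severe replicate 5. The 4 called lower became 2 without severe replicate 5, with normexp background correction or with the deposited normalized values and 7 without severe replicate 6 or with median scaling. *Cd36*, the fatty acid translocase, lay at 3.32, 3.66 and 3.86 in control kidneys and at -1.27, 0.96 and 3.73 in severe kidneys, a change of -2.50 ± 0.59 (SE, adjusted p = 0.01). *Crot* and *Crat*, acyltransferases of the carnitine shuttle, changed by -1.66 ± 0.41 (SE, adjusted p = 0.0127) and by -1.04 ± 0.24 (SE, adjusted p = 0.0089). *Cyp4a14*, a target of PPAR-alpha, went the other way with 2.25 ± 0.54 (SE, adjusted p = 0.0111), over the 5 severe kidneys with a value. Of 19 respiratory chain subunits none was called, and all 19 changes were negative, with a median of -0.44, or -0.24 without severe replicate 5. 11 of them had an unadjusted p under 0.05. The respiratory chain median was -1.41 in severe replicate 5 and between -0.54 and 0.04 in the other severe kidneys. The call did not hold for *Crat* without control replicate 5 or severe replicate 1, 2 or 5 (weakest change -0.87, adjusted p up to 0.0261).

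Other nephron segments and cell types showed few calls, beside 2.99% of all genes called higher and 1.73% called lower. Red blood cell markers, summed on the linear scale, were 107.6 to 450.5 in control and 255.4 to 766 in severe kidneys, and fat markers 3.65 to 59.5 and 0.824 to 121. *Alas2*, the heme enzyme of red cell precursors, rose by 1.51 ± 0.37 (SE, adjusted p = 0.0124), and Hba-a1, an alpha globin with a near-identical copy, changed by 0.94 ± 0.30 (SE, adjusted p = 0.0379), short of 2-fold. The part of blood in other values was not tested. Of 20 genes of the thick limb and distal tubule 1 was called, *Cldn16*, the claudin of magnesium reabsorption. *Umod*, uromodulin of the thick limb, lay at 8.13, 8.21 and 8.45 in control kidneys and at 7.80, 8.33 and 8.51 in severe kidneys, with a change of 0.02 ± 0.12 (SE, adjusted p = 0.944). Of 20 collecting duct genes 1 was called: *Aqp2*, the vasopressin-regulated water channel, changed by 1.03 ± 0.29 (SE, adjusted p = 0.023), and was not called with median scaling. No podocyte or endothelial gene of 20 was called, and 1 and 2 of them were higher and lower at p under 0.05 before adjustment. Of 27 cell cycle genes 2 were called lower: *Kif20b*, a mitotic kinesin, by -2.26 ± 0.57 (SE, adjusted p = 0.0129), and *Cenpj*, a centrosome protein, by -1.06 ± 0.20 (SE, adjusted p = 0.00274). The 2 called lower became 1 without severe replicate 1 or 2 or with normexp background correction, 6 with array weights, 7 without severe replicate 6 and 11 without severe replicate 5. All 27 cell cycle changes were negative, with a median of -0.77, and before adjustment 13 were lower and 0 higher at p under 0.05. The cell cycle list's median was 0.80 in severe replicate 5 and between -1.72 and -0.23 in the other severe kidneys. Among 17 oxidative stress genes 3 were called higher: *Gsta4*, *Gpx2* and *Cbr1*, detoxifying enzymes, rose by 1.59 ± 0.25 (SE, adjusted p = 0.000489), by 1.84 ± 0.36 (SE, adjusted p = 0.00369) and by 1.77 ± 0.51 (SE, adjusted p = 0.0238). The 3 called higher became 6 without severe replicate 6. None of 15 heat shock and unfolded protein genes was called, with 3 higher and 3 lower at p under 0.05 before adjustment. Calls that fell away with 1 kidney left out were those of *Aqp2* without control replicate 2 or 4 or severe replicate 1, 2 or 4 (weakest change 0.89, adjusted p up to 0.0548), *Cenpj* without severe replicate 1 or 2 (weakest change -0.98, adjusted p up to 0.0101) and *Cbr1* without severe replicate 1 or 2 (weakest change 1.56, adjusted p up to 0.0601).

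**Figure D5:**
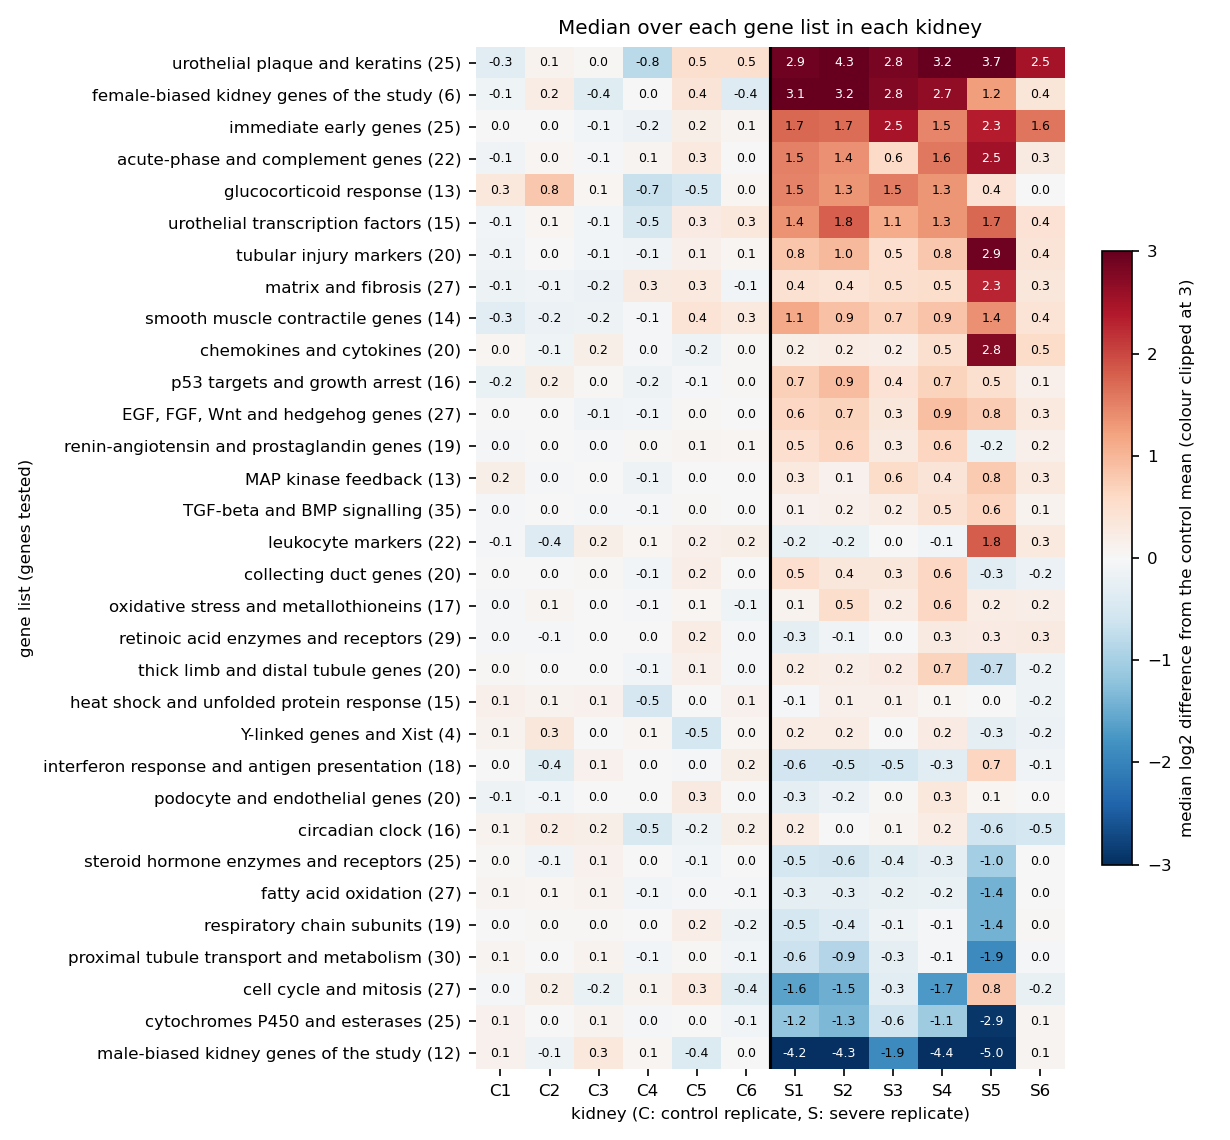
Median over each gene list (rows, with the number of genes tested) of the log2 difference from the control mean, in each of the 6 control kidneys (C1 to C6) and the 6 severe kidneys (S1 to S6); red is higher and blue lower, and the colour is clipped at 3. The urothelial and immediate early lists are red in all 6 severe kidneys, the male-biased list is blue in all but S6 (0.09), and the injury, matrix and chemokine lists are most red in S5.

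The gene with the lowest p of the comparison was *Ccdc50*, a ubiquitin-binding protein, and its neighbourhood on chromosome 16 was higher as well. *Ccdc50* lay at -1.14, -0.65 and -0.52 in control kidneys and at 0.58, 0.83 and 0.95 in severe kidneys, a change of 1.54 ± 0.10 (SE, adjusted p = 1.38e-08). *Cldn16* lay at 0.28, 0.41 and 0.61 in control kidneys and at 1.45, 1.98 and 2.43 in severe kidneys, a change of 1.53 ± 0.14 (SE, adjusted p = 2.25e-06). Between them in gene order, *Tmem207* rose by 2.10 ± 0.30 (SE, adjusted p = 0.000215). *Gmnc*, a regulator of ciliated cells, was not well above background in controls and was at least 4.55-fold higher (adjusted p = 0.000466). *Il1rap*, a receptor subunit in the same stretch, was not called (-0.37 ± 0.15 (SE, adjusted p = 0.0853)). Outside the stretch, *Cldn1*, *P3h2* and *Trp63* (by its brighter probe) on the side of *Cldn16* and *Fgf12*, *Mb21d2* and *Plaat1* on the side of *Ccdc50* were not called. The raised genes of the stretch did not separate severe from mild kidneys: *Ccdc50* differed by -0.12 ± 0.10 (SE, adjusted p = 0.676) and *Cldn16* by -0.34 ± 0.13 (SE, adjusted p = 0.344).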

How the data were processed

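Total RNA of 24 whole kidneys was hybridized to 1-colour Agilent 8x60K mouse arrays on 3 slides, each with all 4 groups. The authors deposited scanner files from Agilent Feature Extraction (version 10.10, per the submitters' processing notes), whose intensity columns are background-corrected and otherwise not normalized, and a table of log2 values whose normalization is not given in the sources used here. Here gProcessedSignal was divided by the 75th percentile of the non-control spots of the array and taken to log2. Control spots and outlier spots were left out, spots of a probe averaged, and 38848 of 55681 probes that were well above background on at least 5 arrays kept. No spot was saturated. RefSeq accessions (GRCm38.p6) named 26756 probes, and the other 28925 stayed unnamed. The brightest probe stood for a gene, giving 27971 genes.

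All 24 arrays entered 1 limma fit (3.58.1, R 4.3.3) with 4 groups and Benjamini-Hochberg adjustment, tested on simulated data. Array measures were compared by exact permutation. A fold against a group not well above background is a lower bound, from the mean of the brighter group against the lowest signal well above background on each array, or the probe's own signal where higher. The number of arrays limits the precision. Plots were made in Python 3.11 (matplotlib 3.10.9).

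Named were the 12 largest named rises and falls with all 6 severe kidneys on 1 side of the control mean, up to 4 members of each gene list, the 5 lowest p, and label checks. Members and lists were chosen with earlier results of these data known. Genes beside *Ccdc50*, *Odc1* and *Alas2* were named after their values were seen. Some genes that this rule names are not reported here. Alternatives were other normalizations, filters, probe rules, blocks, weights, thresholds and left-out kidneys. The planned background correction used the median signal, since no mean signal column was found. Leaving out dim areas of arrays, and leaving out kidneys for the array measures, were chosen after seeing the data.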

Additional observations from a re-analysis of the deposited data

Results flagged for a closer look

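In 39 of 274 tested groups of 6 kidneys, 1 kidney lay far from the other 5 by Dixon's test, which chance alone gives in about 1 in 20 groups. These groups are not independent, since 1 kidney can stand apart in many genes at once.

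Severe replicate 5 was the kidney most often set apart. Its list medians, as differences from the control mean, were 2.93 for tubular injury markers, 2.28 for matrix and fibrosis genes, 1.81 for leukocyte markers, 2.76 for chemokines and cytokines and -1.41 for fatty acid oxidation. Single genes were set apart in the same kidney, with levels of 5.30 for *Col1a1*, 3.79 for *Thbs1*, 0.03 for *Lox*, 0.82 for *Tgfb1* and 2.77 for *Ccl9*. The cornified envelope genes *Sprr2g* (3.27) and *Sprr2f* (4.43) were also far above the other severe kidneys there. *Slc34a1* (5.86) and the growth arrest gene *Gadd45g* (6.20) were below them, and *Il1rap* (-3.16) above them. The 75th percentile of that array was 968.138 intensity units, the highest of the severe arrays.

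Severe replicate 6 was set apart for *Rhox6* (-3.71), *Cyp4a12b* (3.95), *Ccl28* (0.59), *Abcc3* (0.77) and *Myocd* (-4.20). Severe replicate 2 was the highest for *Krt15* (2.03), *Upk2* (4.69) and *Upk3a* (5.87). Severe replicate 4 was set apart for *Slc6a19* (-1.73), whose probe lies in the dim area of that array, and for its share of outlier spots (1.113%).

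Among control kidneys, replicate 5 was set apart for *Grem1* (-1.82), *Crot* (4.92), *Acsm3* (6.05), *Abcc3* (0.62) and *Cenpj* (0.52) and for its share of probes well above background (58.839%). Replicate 6 was set apart for *Sprr2f* (-5.88) and *Myocd* (-2.29), replicate 3 for *Egr2* (-5.77) and *Cyp2j13* (4.32), and replicate 1 for *Ankrd22* (-7.76) and *Cebpd* (2.52). Replicate 2 was set apart for *Ces1g* (-0.57). A level of a gene that is not well above background, such as *Sprr2f* in controls, is a reading of the scanner near its floor.

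The change against control kidneys was larger in severe than in mild kidneys for 20 genes named in the text, by the contrast of severe minus mild in the limma fit over 4 groups. Of the urothelial genes these were *Krt15* by 3.02 (adjusted p = 0.000398), *Gjb6* by 3.18 (adjusted p = 0.00902), *Ivl* by 3.22 (adjusted p = 0.0203), *Upk2* by 3.15 (adjusted p = 0.00375), *Upk1b* by 3.11 (adjusted p = 0.00589), *Upk3a* by 2.99 (adjusted p = 0.00725) and *Upk1a* by 2.80 (adjusted p = 0.00586). *Sprr1a* differed by 2.94 (adjusted p = 0.00725), *Krt14* by 2.78 (adjusted p = 0.00656) and *Uchl1* by 2.45 (adjusted p = 0.00338). Of the transcription factors, *Grhl3* differed by 2.75 (adjusted p = 0.00589), *Foxa1* by 2.70 (adjusted p = 0.0151), *Msx2* by 1.65 (adjusted p = 0.00656) and *Grhl1* by 1.63 (adjusted p = 0.0207). The others were *Ankrd22* by 3.08 (adjusted p = 0.0346), *Serpinb5* by 3.06 (adjusted p = 0.01), *Arhgap40* by 2.46 (adjusted p = 0.000398), *Slc46a2* by 2.33 (adjusted p = 0.00386), *Cyp1a1* by 1.82 (adjusted p = 0.00725) and *Bmp3* by 1.53 (adjusted p = 0.0184). With the severe and mild kidneys fitted alone, none of these differences passed the test.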

How the results depend on the processing

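The 835 genes called higher, 483 called lower and 129 called between severe and mild kidneys moved by over 1.5 times under some settings, and the cause was not tested. Median scaling gave 538 higher and 797 lower, normexp background with quantile normalization 451 and 265, and the deposited normalized log2 values gave 530 and 330. Fitting only the compared groups gave 653 higher and 268 lower, and 0 between severe and mild kidneys. With no fold minimum there were 1836 higher and 2672 lower. Leaving out 1 kidney gave 603 to 1419 higher, 284 to 862 lower and 60 to 173 between severe and mild kidneys, the lowest without severe replicate 2 and the highest without severe replicate 6. Beyond the 1.5 times were also the lower calls without control replicate 3 (317) and the calls against mild kidneys without severe replicate 5 (67). Deviations of same-numbered kidneys had r from -0.10 to 0.56, over 0.1 in 2 of 6 pairs and highest for replicate 1. These values do not settle whether the numbers pair the samples. The replicate block gave 659, 329 and 52 calls. The slide as a block gave 805, 472 and 99 calls. The share of probes well above background differed by -3.05 to -0.05 percentage points with 1 kidney left out, and passed no test. Of the 108 called genes named in the text, 87 were called in every fit that left out 1 kidney, and 81 under every other setting at the same thresholds. *Slpi* was lost under 7 of these settings, *Lef1* and *Slc7a13* under 4, and *Aqp2*, *Crat*, *Il1b*, *Plaur* and *Sprr2f* under 3. The probes of *Trp63* gave -0.07 by the brighter and 1.16 (adjusted p = 0.00107) by their mean. No called value of these genes changed sign. The median of the heat shock list, with no calls, lay between -0.15 (median scaling) and 0.14 (without control replicate 1), and that of the EGF, FGF, Wnt and hedgehog list fell to 0.25 with probes well above background on all arrays. Depth on an array is signal over background: genes that were dim in controls, such as *Sprr2f*, *Sprr2g* and *Gmnc*, have only a lower bound of their rise.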
